A study of Mus musculus with 9 samples.

Results

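Cytosolic ribosomal proteins are the protein components of the ribosome that translates nuclear messenger RNA. Those of the small (40S) subunit are named Rps and those of the large (60S) subunit Rpl or Rplp, and each ribosome needs them in matched amounts. Their mRNAs are among the most abundant of dividing cells, many start with a pyrimidine-rich stretch (the terminal oligopyrimidine, or TOP, motif) through which growth signals control translation, and many of the genes carry small nucleolar RNA (snoRNA) genes in their introns. Embryonic stem (ES) cells divide fast, and MYC-family factors are known activators of ribosome genes. The genes described here were chosen by symbol: Rps or Rpl followed by a number and a restricted set of suffixes, plus Rpsa, Rplp0, Rplp1 and Rplp2, with pseudogenes named "-ps" and S6 kinases left out, and with at least 1000 counts summed over the 9 libraries. Of 52636 gene IDs in the count table, 90 matched by symbol and 83 passed the count minimum. The rule used total abundance and no difference between groups. The members with the fewest summed counts were Rpl10l with 8053 and Rpl39l with 11120, both well above the minimum of 1000. The highest matches below the minimum were Rpl36al with 635 and Rpl3l with 344. Rpl24 was also left out, with 213 counts. In the annotation, exons of Rpl24 overlap those of Gm28037 on the same strand and exons of Rpl36al overlap those of Gm49383, and the part of these overlaps in the low counts was not tested. The most abundant member by summed counts was Rpl4 with 634569. The 83 members comprise 31 genes of the small subunit, 45 of the large subunit, 5 paralogs (Rpl7l1, Rpl10l, Rpl22l1, Rpl39l and Rps27l) and 2 genes annotated as processed pseudogenes (Rps3a3 and Rps4l).

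RNA was sequenced from 3 mouse ES cell lines with 3 libraries each, grown without further treatment in serum and leukaemia inhibitory factor (LIF) and sorted as PECAM+ PDGFRA- cells. Line 44C6, titled NanogKO, has the genotype N{delta} and is called Nanog-null here. Line 44J, titled NanogKO:Esrrb, and line 44JN, titled NanogKO:Esrrb:Nanog, are called the Esrrb and the Esrrb+Nanog line. The labels give both of these the genotype N{delta}:cE:iN, so that all 3 lines carry N{delta}. Each group is 1 line, so a difference between groups cannot be told apart from a difference between lines. The labels do not say that replicates came from separate cultures, and p-values measure only the spread between these libraries. Library totals ranged from 21808120 to 32496267 counts, and levels are given as CPM, counts relative to the scaled library total.

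The altered genes followed the titles. Nanog stood at 14.3 to 16.0 CPM in Nanog-null cells, 29.7 to 35.1 in the Esrrb line and 221.5 to 332.6 in the Esrrb+Nanog line, and which part of the gene is deleted is not given in the sources used here. Esrrb, which encodes an orphan nuclear receptor of the naive pluripotency network, stood at 253.3 to 303.0, 692.1 to 949 and 1056 to 1151 CPM. The 10 ES cell markers summed to 2795 to 3068, 4283 to 4534 and 4774 to 4983 CPM in the same order, with no marker at 0. The 17 primitive endoderm markers summed to 576 to 921, 534 to 720 and 683 to 843 CPM with no marker at 0, the 14 trophoblast markers to 121 to 291, 55.2 to 85.4 and 72.5 to 88.5, and the 8 fibroblast markers to 13.7 to 83.4, 7.38 to 13.8 and 7.57 to 14.1. These sums hide opposite moves in every list. Between the Esrrb and Nanog-null lines 6 of the 10 ES cell markers rose and 1 fell. Of 16 tested endoderm markers 6 rose and 3 fell, against 24.2% and 24.2% of all tested genes. Of 12 tested trophoblast markers 0 rose and 8 fell, and of 4 tested fibroblast markers 1 rose and 3 fell. The trophoblast count of 0 was also 0 by DESeq2 and at an unadjusted p under 0.05 in edgeR. Between the Esrrb+Nanog and Nanog-null lines 6 ES cell markers rose and 3 fell. There 3 endoderm markers rose and 6 fell, against 27.2% and 27.2% of all tested genes. In the same comparison 2 trophoblast markers rose and 7 fell, and 1 fibroblast marker rose and 2 fell. Elf5 was at 0 in the 3 Esrrb libraries, and Postn was at 0 in all Esrrb and Esrrb+Nanog libraries. Nanog-null replicate 2 had the highest sum of the endoderm, trophoblast and fibroblast lists, and the part of such cells in the results was not tested. In bulk RNA, fewer cells of a type and less RNA per cell cannot be told apart.

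Promoter sequence was matched for 61 of the 83 members (RefSeq, GRCm38.p6, from 250 bases before to 50 after the annotated start). The 250 bases before the start are printed 5′ to 3′ for the members with the largest rise and the largest fall in a comparison below. Rpl10l lies on chromosome 12 (chr12:66284402-66284651, minus strand), Rpl39l on chromosome 16 (chr16:10169978-10170227, plus strand) and Rpl13a on chromosome 7 (chr7:45128746-45128995, minus strand). Capitals mark AAGGTCA, the extended monomer site bound by nuclear receptors such as ESRRB, and CCGGAAG, a core site of ETS-family factors. Rpl13a held neither.
Rpl10l: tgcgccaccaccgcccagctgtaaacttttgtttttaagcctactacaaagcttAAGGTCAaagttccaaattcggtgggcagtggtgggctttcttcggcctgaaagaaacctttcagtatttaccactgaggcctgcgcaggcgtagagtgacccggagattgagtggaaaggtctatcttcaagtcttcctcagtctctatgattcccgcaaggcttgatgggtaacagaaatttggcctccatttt
Rpl39l: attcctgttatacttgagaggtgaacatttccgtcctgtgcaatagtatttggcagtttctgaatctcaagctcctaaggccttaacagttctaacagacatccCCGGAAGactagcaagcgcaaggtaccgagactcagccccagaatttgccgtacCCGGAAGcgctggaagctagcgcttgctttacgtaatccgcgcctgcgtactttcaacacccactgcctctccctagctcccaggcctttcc
Rpl13a: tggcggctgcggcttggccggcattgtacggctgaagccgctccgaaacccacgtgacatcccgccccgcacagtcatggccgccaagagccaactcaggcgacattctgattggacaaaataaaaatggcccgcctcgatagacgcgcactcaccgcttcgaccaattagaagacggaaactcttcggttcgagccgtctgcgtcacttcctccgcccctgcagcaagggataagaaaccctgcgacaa

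A second set shows the start itself, from 15 bases before to 15 after the annotated start, for Rpl13a and Rps12, which fell, and for Rpl37 and Rpl39l, which rose in the Esrrb line. Capitals mark CTTTCC or CTTTTC on the sense strand, short pyrimidine stretches near the start. None of the marked stretches begins at the annotated start. That of Rpl39l ends just before it, and those of Rpl13a and Rps12 lie after it. The marks therefore do not show a TOP motif at the annotated start of these transcripts.
Rpl13a: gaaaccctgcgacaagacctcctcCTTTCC
Rps12: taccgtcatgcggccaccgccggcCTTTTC
Rpl37: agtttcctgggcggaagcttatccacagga
Rpl39l: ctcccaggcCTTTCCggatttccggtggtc
Among the 56 matched members that are neither paralog nor pseudogene, CTTTCC or CTTTTC on the sense strand within 15 bases before to 20 after the start was found in 12 (21.4%), against 2.56% of 20298 promoters of the table. A C at the annotated start was found in 20 of the 56 (35.7%) against 14.2% of all promoters. A run of at least 5 C or T over the start was found in 18 (32.1%) against 8.88%. CCGGAAG on either strand was found in 23 of the 56 (41.1%) against 11.0% of all promoters. AAGGTCA was found in 2 (3.57%) against 4.25%, and AGATGGC, a core site of YY1, in 6 (10.7%) against 6.26%. The motifs were counted separately and can overlap in a few letters.

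The 83 genes together took a smaller share of all counts in the lines titled with Esrrb than in the Nanog-null line. The share was 5.17%, 5.51% and 5.40% in the Nanog-null libraries, 5.07%, 4.72% and 5.06% in the Esrrb libraries, and 4.69%, 4.65% and 4.66% in the Esrrb+Nanog libraries. The 3 groups did not overlap. The means were 5.36% ± 0.17 (SD, n = 3), 4.95% ± 0.20 (SD, n = 3) and 4.67% ± 0.02 (SD, n = 3). No test was made on this sum.

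**Figure D1:**
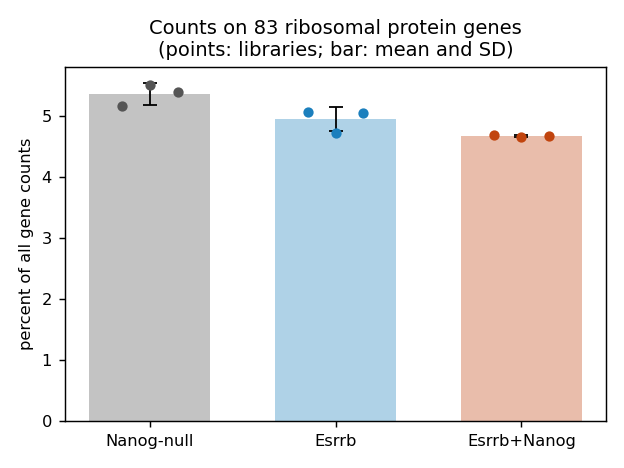
Share of all gene counts (percent, y axis) that fell on the 83 ribosomal protein genes in each line, with points for the 3 libraries and bars for mean and SD. The 3 Esrrb+Nanog libraries, at 4.65% to 4.69%, lie below every library of the other lines.

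Levels differed widely between members. Per kilobase of transcript, the median member stood at 654 CPM in Nanog-null cells, 608 in the Esrrb line and 552 in the Esrrb+Nanog line. Rplp1, an acidic protein of the 60S stalk that recruits elongation factors, was the highest member on this scale in the Nanog-null line, with 2603 CPM per kilobase. Rpl8 followed with 2074, Rps12 with 2001 and Rpl4 with 1868. The lowest were the paralogs Rpl10l with 17.3, Rpl39l with 34.2 and Rpl7l1 with 88.6 CPM per kilobase. These levels carry the transcript lengths of the annotation and are not comparable beyond them.

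The first comparison was of Esrrb with Nanog-null cells. Of the 83 members, 6 rose and 19 fell, against 24.2% of all 16198 tested genes rising and 24.2% falling (48.5% in either direction). The share that rose (7.23%) was below that background and the share that fell (22.9%) was near it. The median log2 change of the members was -0.08, against 0.01 for all tested genes. The Esrrb and Nanog-null libraries did not overlap for 9 members higher and 30 lower, against 29.4% and 29.0% of all tested genes. Among the risers were the paralogs Rpl10l, Rpl39l and Rps27l, the pseudogene Rps4l, and Rpl37.

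Rpl10l (ENSMUSG00000060499, chr12:66283379-66284401 in mm10, minus strand) is an autosomal paralog of the X-linked Rpl10 and is best known from the male germline. It stood at 19.0, 15.8 and 18.3 CPM in Nanog-null libraries, 48.4, 45.7 and 49.4 in the Esrrb libraries, and 25.5, 34.4 and 34.97 in the Esrrb+Nanog libraries. The 3 lines did not overlap, and the Esrrb libraries were the highest. In the Esrrb line it rose by 1.44 ± 0.12 (SE) on the log2 scale (2.70-fold, adjusted p = 2.75e-06, n = 3 libraries a group).

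Rpl39l, the autosomal paralog of the X-linked Rpl39, a small protein that lines the peptide exit tunnel, stood at 28.2, 25.7 and 28.8 CPM in Nanog-null libraries. It stood at 68.8, 70.0 and 75.3 CPM in Esrrb libraries, and at 21.3, 37.5 and 45.5 in the Esrrb+Nanog libraries. The Esrrb libraries were again above all others, while the Esrrb+Nanog libraries spread around the Nanog-null range. The log2 change in the Esrrb line was 1.37 ± 0.20 (SE, adjusted p = 0.000158). Rpl10l and Rpl39l were also the 2 members that passed a test against a fold change of 1.5 in this comparison.

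Rpl37, a zinc-binding 60S protein, stood at 375.6, 384.6 and 392.5 CPM in Nanog-null libraries, 540.2, 530.5 and 554.8 in the Esrrb libraries, and 465.2, 505.5 and 492.2 in the Esrrb+Nanog libraries. The 3 lines did not overlap, and the Esrrb libraries were the highest. Rpl37 rose by 0.50 ± 0.05 (SE, adjusted p = 1.82e-05) in the Esrrb line. Rps27l rose by 0.41 ± 0.09 (SE, adjusted p = 0.00255) and Rps4l by 0.25 ± 0.07 (SE, adjusted p = 0.00979). Rps4l is an annotated copy of Rps4x, so that its reads are uncertain.

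The largest fall was that of Rpl13a (ENSMUSG00000074129, chr7:45125558-45128761 in mm10, minus strand), a 60S protein also known for a role in translational control under interferon and host of 4 annotated snoRNA genes. Rpl13a stood at 150.9, 162.5 and 168.9 CPM in Nanog-null libraries, 124.3, 108.6 and 127.2 in the Esrrb libraries, and 94.2, 103.8 and 108.8 in the Esrrb+Nanog libraries. The Nanog-null libraries were above all others, and Esrrb replicate 2 lay within the Esrrb+Nanog range. Its log2 change in the Esrrb line was -0.42 ± 0.08 (SE, adjusted p = 0.000899). Rpsa, the 40S protein also known as the laminin receptor, fell to 0.831 of its level (log2 change -0.27 ± 0.05 SE, adjusted p = 0.00174). Rps26, which sits at the mRNA exit site, changed by -0.25 (adjusted p = 0.00326), Rpl36 by -0.25 (adjusted p = 0.00535) and Rps12 by -0.23 (adjusted p = 0.0136), all on the log2 scale. Without 1 library in turn the number of falling members was 9 without Nanog-null replicate 2, 10 without Nanog-null replicate 3, 6 without Esrrb replicate 2 and 29 without Esrrb+Nanog replicate 1, and between 13 and 26 without each of the others. Among tested genes 3484 of 16608 fell without Esrrb replicate 2, and 4323 of 16776 without Esrrb+Nanog replicate 1. Scaled to library totals alone 31 members fell, against 4273 of 16198 tested genes. Scaled to the summed counts of the members themselves 12 rose and 4 fell, against 4777 and 3227 of 16198 tested genes.

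**Figure D2:**
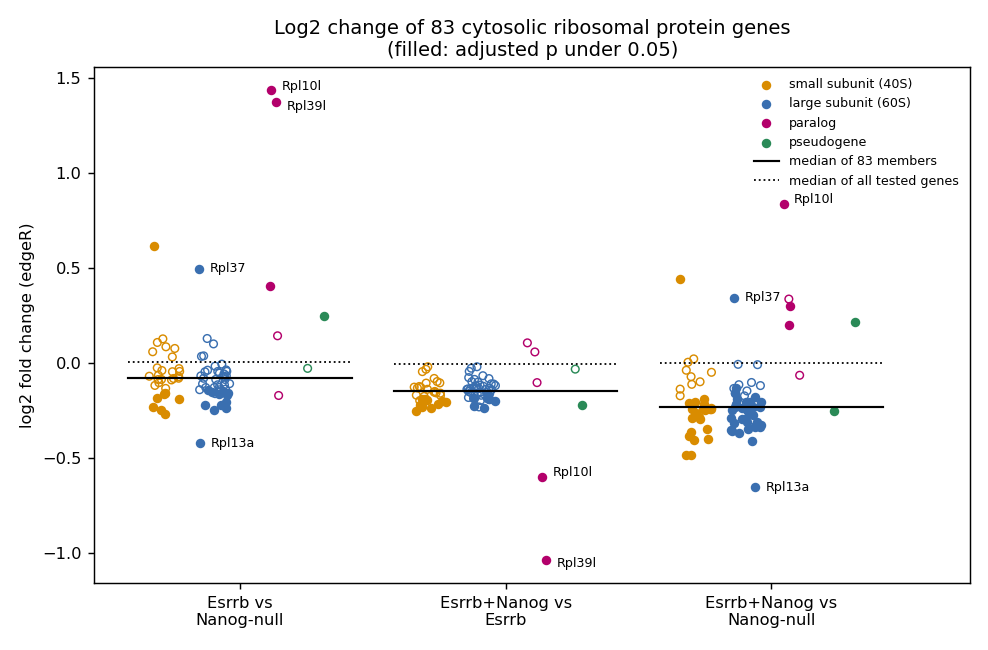
Log2 fold change (y axis) of each of the 83 members in the 3 comparisons (x axis), coloured by class, with filled points for adjusted p under 0.05, a solid line at the median of the members and a dotted line at the median of all tested genes. The solid line lies at -0.08, -0.15 and -0.23 from left to right. Rpl10l and Rpl39l stand apart at 1.44 and 1.37 in the leftmost comparison.

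The second comparison was of Esrrb+Nanog with Esrrb cells, and shares the Esrrb libraries with the first. None of the 83 members rose and 21 fell, against 5.43% of all tested genes rising and 7.75% falling (13.2% in either direction). At an unadjusted p under 0.05 in edgeR 0 rose and 50 fell, and by DESeq2 0 rose and 27 fell. The estimate was below 0 for 81 of the 83 members, with a median of -0.15 on the log2 scale against -0.01 for all tested genes. The Esrrb+Nanog libraries were all below the Esrrb libraries for 52 members and all above for 0, against 16.7% and 14.9% of all tested genes. Of the small subunit 11 of 31 genes fell, and of the large subunit 7 of 45.

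The largest falls were those of 2 paralogs that had risen in the Esrrb line. Rpl39l changed by -1.04 ± 0.19 (SE, fold 0.488, adjusted p = 0.00522) and Rpl10l by -0.60 ± 0.11 (SE, fold 0.661, adjusted p = 0.00579). The next were Rps12 at -0.25 (adjusted p = 0.029), Rps3a1 at -0.24 (adjusted p = 0.0258), Rpl30 at -0.23 (adjusted p = 0.0451) and Rps6 at -0.23 (adjusted p = 0.0141). Rps3a1, a 40S protein, stood at 363.0, 330.6 and 379.8 CPM in Esrrb libraries and 297.7, 295.5 and 316.7 in the Esrrb+Nanog libraries. Rps6, the 40S protein phosphorylated by S6 kinases, stood at 539.8, 512.4 and 532.3 CPM and 432.3, 455.0 and 465.1 in the same order. Neither gene's groups overlapped. Rpl7, a 60S protein and the partner of the paralog Rpl7l1, changed by -0.23 ± 0.06 (SE, adjusted p = 0.021). Rpl37, which had risen in the Esrrb line, had a log2 change of -0.15 that did not pass the test.

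The number of members below the threshold in this comparison turned on every library. It was 12, 9 and 4 without Nanog-null replicates 1, 2 and 3, 2, 35 and 3 without Esrrb replicates 1, 2 and 3, and 5, 2 and 8 without Esrrb+Nanog replicates 1, 2 and 3, while the median of the members stayed between -0.18 and -0.13 in these fits. With only these 2 groups in the fit 3 members fell, and scaled to library totals alone 4 fell.

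The third comparison was of Esrrb+Nanog with Nanog-null cells, and shares its libraries with the other two. Here 58 of the 83 members fell and 6 rose, against 27.2% of all tested genes falling and 27.2% rising (54.4% in either direction). The median log2 change was -0.23, a level 0.851 of that in the Nanog-null line, against 0.00 for all tested genes. The Esrrb+Nanog libraries were all below the Nanog-null libraries for 62 members and all above for 5, against 30.7% and 31.2% of all tested genes. Without the paralogs and pseudogenes, 57 of 76 fell and 2 rose. In the small subunit 21 of 31 fell with a median of -0.24, and in the large subunit 36 of 45 with a median of -0.23. With scaling factors computed without the members, 58 fell and 6 rose as well, against 4487 and 4291 of 16198 tested genes.

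Lists that can move with RNA quality moved in part with these falls. The 7 abundant noncoding RNAs found in the table summed to 999 to 1212 CPM in Nanog-null, 864 to 1068 in Esrrb and 689 to 797 in Esrrb+Nanog libraries, so that the Esrrb+Nanog libraries lay below all others. The 2 that were tested, the mitochondrial rRNAs mt-Rnr1 and mt-Rnr2, fell between the Esrrb+Nanog and Nanog-null lines (median -0.51), 1 of them fell between the Esrrb+Nanog and Esrrb lines (median -0.34), and neither passed the test between the Esrrb and Nanog-null lines (median -0.17). The 13 mitochondrial mRNAs summed to 12624 to 14810, 12259 to 15362 and 11162 to 12282 CPM, with 5 or 6 of the 13 at 0 in each library. Here the Esrrb+Nanog libraries lay below all Nanog-null libraries but overlapped the Esrrb libraries. Of the 7 tested, 3 fell and 1 rose in Esrrb+Nanog against Nanog-null (median -0.22), 3 fell in Esrrb+Nanog against Esrrb (median -0.14) and none passed the test in Esrrb against Nanog-null (median -0.02). In that last comparison both lists also had 0 genes at an unadjusted p under 0.05 in edgeR and 0 by DESeq2. The RNA was depleted of rRNA before sequencing, and the part of depletion in the levels of mt-Rnr1 and mt-Rnr2 was not tested. The part of RNA quality in the falls of the ribosomal protein genes was not tested either.

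Rpl13a again had the largest fall, -0.65 ± 0.08 (SE, fold 0.636, adjusted p = 3.1e-05). Rpsa stood at 1177, 1222 and 1226 CPM in Nanog-null libraries, 1043, 960 and 1009 in the Esrrb libraries, and 892.7, 860.7 and 838.7 in the Esrrb+Nanog libraries. The 3 lines did not overlap, and the log2 change was -0.48 ± 0.05 (SE, adjusted p = 1.95e-05). Rps12, a 40S protein of the beak, stood at 1178, 1182 and 1146, then 992.3, 902.5 and 1093, then 833.8, 825.8 and 847 CPM. Its lines did not overlap either, and it changed by -0.48 ± 0.07 (SE, adjusted p = 9.19e-05). Rpl3, which lies near the peptidyl transferase centre, stood at 1350 to 1365 CPM in the Nanog-null line and 1016 to 1031 in the Esrrb+Nanog line (log2 change -0.41, adjusted p = 4.98e-05). Rps26 changed by -0.40 (adjusted p = 0.000104) and Rps9, a 40S protein near the mRNA entry, by -0.40 (adjusted p = 0.00025).

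Among the 6 that rose were Rpl10l (0.84 ± 0.12 SE, adjusted p = 0.000109), Rpl37 (0.34 ± 0.05 SE, adjusted p = 0.00021), Rps27l (0.30 ± 0.09 SE, adjusted p = 0.012), Rps4l (0.22 ± 0.07 SE, adjusted p = 0.0176) and Rpl7l1 (0.20 ± 0.07 SE, adjusted p = 0.0282). The libraries overlapped for Rps27l. Rpl39l changed by 0.34 ± 0.20 (SE, adjusted p = 0.173), and by 0.59 (adjusted p = 0.000347) without Esrrb+Nanog replicate 1, the library with its lowest value. Without Nanog-null replicate 3, or without Esrrb+Nanog replicate 3, 3 members rose instead of 6. In these fits 3711 of 16561 and 3932 of 16584 tested genes rose. Scaling to the summed counts of the members sets their own median near 0 and moves that of all tested genes by 0.23 here. With that scaling 14 members rose and 7 fell, against 7028 and 2821 of 16198 tested genes.

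**Figure D3:**
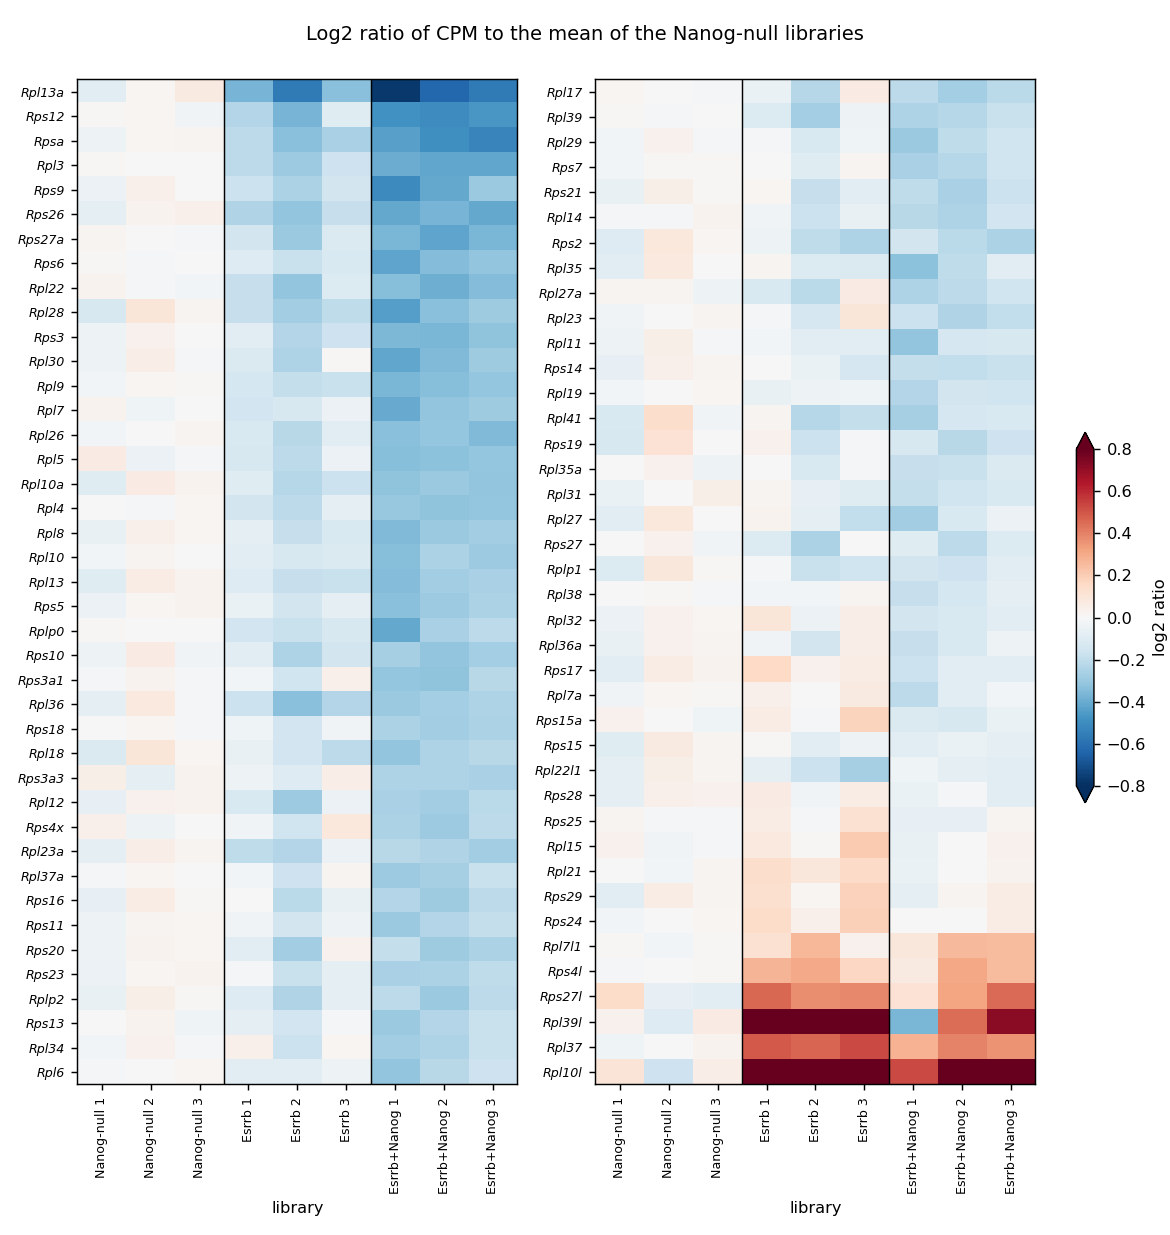
Log2 ratio of the CPM in each of the 9 libraries (columns) to the mean of the Nanog-null libraries for 81 of the 83 members (rows, ordered by their change between the Esrrb+Nanog and Nanog-null lines), with colours that saturate at 0.8 on either side of 0. Blue fills the Esrrb+Nanog columns of most rows. Red is found mainly in the bottom rows on the right, from Rpl7l1 down to Rpl10l.

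Members with textbook roles of their own followed the majority to differing degrees. Rplp0, the base of the 60S stalk, stood at 1498, 1488 and 1487 CPM in Nanog-null libraries, 1341, 1318 and 1363 in the Esrrb libraries, and 1125, 1247 and 1290 in the Esrrb+Nanog libraries. The 3 lines did not overlap, and the log2 change of Rplp0 was -0.29 (adjusted p = 0.00146) between the Esrrb+Nanog and Nanog-null lines. Its stalk partner Rplp2 changed by -0.24 (adjusted p = 0.00571), and Rplp1 had a log2 change of -0.13 that did not pass the test (adjusted p = 0.113). In the Esrrb line Rplp0 was just past the threshold (-0.15, adjusted p = 0.0497), a call lost without each Nanog-null or Esrrb library in turn.

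Rpl5 and Rpl11 bind the 5S rRNA and, when free, the p53 regulator Mdm2. Rpl5 stood at 595.7, 550.8 and 563.5 CPM, then 520.8, 492.3 and 551.5, then 449.5, 453.2 and 460.4. The Esrrb+Nanog libraries were below all others, with a log2 change of -0.33 (adjusted p = 0.00056) against the Nanog-null line. Rpl11 stood at 511.1 to 542.7, 492.5 to 516.8 and 421.7 to 480.6 CPM, and changed by -0.19 (adjusted p = 0.0209). Rps6 stood at 574.4 to 583.8, 512.4 to 539.8 and 432.3 to 465.1 CPM in the 3 lines, which did not overlap, and changed by -0.36 (adjusted p = 0.000119). Rps27a, made as a fusion with ubiquitin, changed by -0.38 (adjusted p = 0.000172).

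Rps19, the 40S gene most often mutated in Diamond-Blackfan anaemia, stood at 444.2 to 525.6, 430.4 to 498.2 and 416.8 to 443.3 CPM. Its log2 change of -0.17 between the Esrrb+Nanog and Nanog-null lines did not pass the test (adjusted p = 0.0682). Rpl38, a 60S protein known for its role in the translation of Hox mRNAs, stood at 162.4 to 164.5, 161.0 to 165.9 and 143.9 to 154.9 CPM. Its change of -0.13 (adjusted p = 0.0471) lost its call under most of the alternatives tried. Rps24, Rps29, Rpl15 and Rpl21, singled out after their values were seen, had log2 changes between -0.01 and 0.02 between these lines, and Rps24 stood at 596.1 to 612.7, 621.3 to 690.8 and 605.5 to 630.2 CPM.

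**Figure D4:**
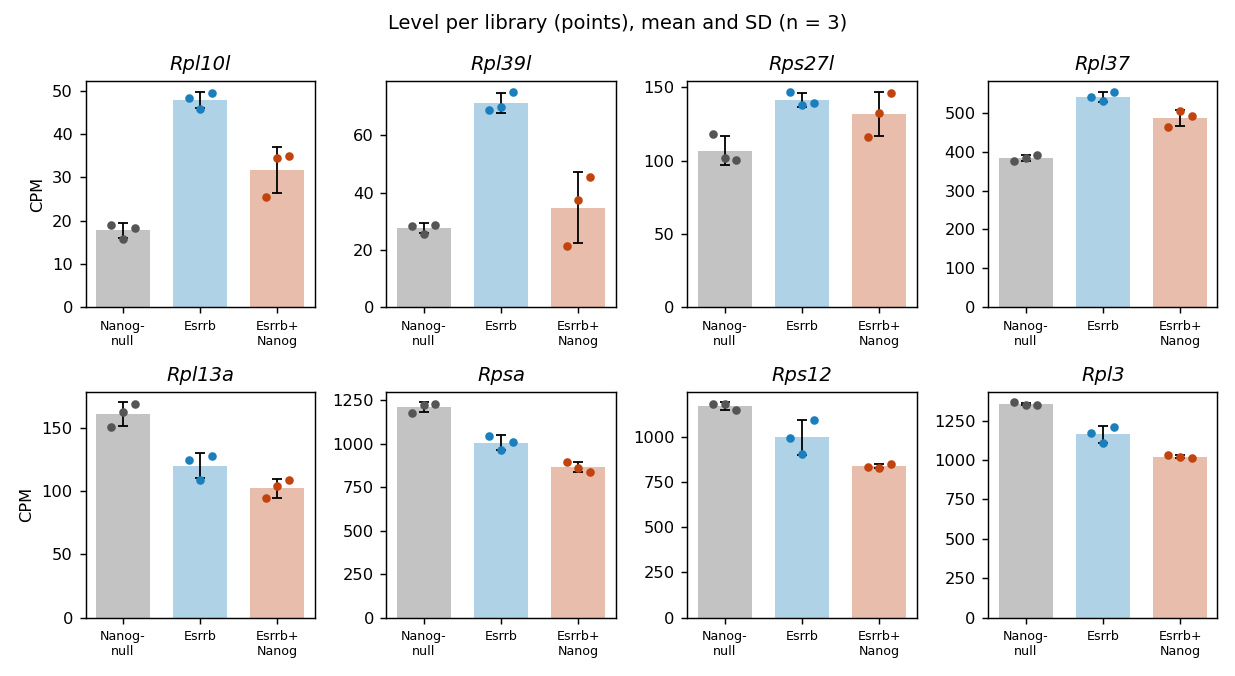
CPM (y axis, from 0) of 8 members in the 3 lines, with points for the 3 libraries and bars for mean and SD. Rpl10l, Rpl39l and Rpl37 are highest in the Esrrb line, while Rpl13a, Rpsa, Rps12 and Rpl3 are highest in the Nanog-null line.

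The 5 paralogs were set against their partners as a ratio within each library, which needs no scaling between libraries. Coding sequences of the annotation were 84.7% identical between Rpl10 and Rpl10l, 85.0% between Rpl39 and Rpl39l, 76.2% between Rps27 and Rps27l, 68.2% between Rpl22 and Rpl22l1 and 54.0% between Rpl7 and Rpl7l1. How reads that fit both copies were counted is not given in the sources used here. Per length, Rpl10l made up 2.38%, 1.91% and 2.26% of the pair in the Nanog-null libraries, 6.07%, 5.92% and 6.32% in the Esrrb libraries, and 3.91%, 4.92% and 5.11% in the Esrrb+Nanog libraries. Rpl39l made up 13.1%, 12.2% and 13.4%, then 28.6%, 31.3% and 29.4%, then 12.0%, 19.2% and 21.8%. In both pairs the Esrrb libraries had the highest share of the paralog.

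Rps27l, also known as a p53 target, made up a mean of 16.9%, 22.7% and 21.6% of its pair with Rps27 in the Nanog-null, Esrrb and Esrrb+Nanog lines. For Rpl7l1 these means were 9.33%, 10.9% and 13.0%, and the 3 lines did not overlap. Rpl22l1, whose expression is known to be restrained by Rpl22, made up 25.7%, 26.2% and 29.8%. Its own log2 changes were -0.17 in Esrrb against Nanog-null, 0.11 in Esrrb+Nanog against Esrrb and -0.06 in Esrrb+Nanog against Nanog-null. None of these passed the edgeR test. Those of Rpl22 were -0.20 (adjusted p = 0.015), -0.16 (not called) and -0.36 (adjusted p = 0.000371) in the same order. The part of Rpl22 in the level of Rpl22l1 was not tested. Exact two-sided permutation tests of the log2 ratio were made for 15 combinations of pair and comparison. With 3 libraries against 3 the smallest p they can give is 0.1, and 12 of the 15 reached it (adjusted p = 0.125 by the Benjamini-Hochberg method), so that none could pass. The other 3 were Rpl22l1 over Rpl22 in Esrrb against Nanog-null (exact p = 0.7), Rpl39l over Rpl39 in Esrrb+Nanog against Nanog-null (exact p = 0.4) and Rps27l over Rps27 in Esrrb+Nanog against Esrrb (exact p = 0.6).

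The members were also split by features that the rule did not use. Of the 76 members that are neither paralog nor pseudogene, 30 hold an annotated snoRNA gene. Between the Esrrb+Nanog and Nanog-null lines 25 of these hosts fell and 2 rose with a median of -0.24, and of the 46 without a snoRNA gene 32 fell and 0 rose with a median of -0.21. Of the 4 X-linked members (Rpl10, Rpl36a, Rpl39 and Rps4x) 3 fell, with a median of -0.23. Members whose promoter holds CCGGAAG had a median of -0.21 with 19 of 23 falling, and those without it -0.24 with 24 of 33 falling. Of the 12 with CTTTCC or CTTTTC at the start 10 fell with a median of -0.26, and of the 44 without 33 fell with a median of -0.23. For reference, 57 of all 76 members fell and 2 rose between the Esrrb+Nanog and Nanog-null lines, with a median of -0.24. Of all tested genes 27.2% fell and 27.2% rose there. The differences between the subsets were not tested.

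Reads of near-identical copies limit some of these values. Named pseudogenes were annotated for 61 members. They held few counts for most, but 15141 beside the 97551 of Rps13 and 33091 beside the 287718 of Rpl3. Exons of 19 members overlap those of another gene on the opposite strand, among them Rpl5, Rpl15, Rpl22l1, Rpl30 and Rps27a, and without stated strand settings reads from the partners cannot be told apart. Exons of 5 members overlap another gene on the same strand, among them Rpl13a.

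Ribosome-related genes outside the rule were counted from lists of known function. Counts for each list are given for Esrrb against Nanog-null, Esrrb+Nanog against Esrrb and Esrrb+Nanog against Nanog-null, in that order. Of all tested genes 24.2%, 5.43% and 27.2% rose and 24.2%, 7.75% and 27.2% fell. Fau and Rack1 are ribosomal proteins with other symbols, from a list of 3 tested genes. The third gene was not called in any comparison. Its log2 change was 0.32 in the Esrrb line and 0.27 in Esrrb+Nanog against Nanog-null, opposite in sign to those of Fau and Rack1. Neither Fau nor Rack1 passed the edgeR test between the Esrrb and Nanog-null lines (adjusted p = 0.160 for Fau and 0.329 for Rack1). The same held between the Esrrb+Nanog and Esrrb lines (adjusted p = 0.226 for Fau and 0.0519 for Rack1). There Rack1 passed under DESeq2 with an adjusted p of 0.0118. Both fell in the last, Fau by -0.21 (adjusted p = 0.00724) and Rack1 by -0.23 (adjusted p = 0.00246) on the log2 scale.

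Of 14 tested translation factors and other genes with TOP mRNAs, 1 rose and 3 fell, then 0 rose and 7 fell, then 1 rose and 10 fell, with medians of -0.06, -0.22 and -0.31. The falling share in the Esrrb line, 21.4%, was near that of all tested genes. Eef2, the translocation factor of elongation, stood at 7143, 7960 and 7833 CPM in Nanog-null libraries, 5722, 4894 and 5670 in the Esrrb libraries, and 4701, 4286 and 4308 in the Esrrb+Nanog libraries. These lines did not overlap, and Eef2 changed by -0.49 (adjusted p = 0.000234) in the Esrrb line and -0.79 (adjusted p = 5.62e-06) in Esrrb+Nanog cells against Nanog-null cells. Eif4b, a cofactor of the cap-dependent helicase, changed by -0.47 (adjusted p = 1.71e-05) in the latter, and Eef1g by -0.30 (adjusted p = 0.00372) between the Esrrb+Nanog and Esrrb lines. The one that rose was Pabpc1, the poly(A)-binding protein, by 0.40 (adjusted p = 0.000201) in the Esrrb line.

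Lists of genes that make and assemble ribosomes had median log2 changes between -0.12 and 0.23. Of 27 tested genes of 40S assembly 9 rose and 2 fell, then 0 and 1, then 6 and 3. Among them Bms1, a GTPase of early assembly, rose by 0.32 (adjusted p = 0.00227) in the Esrrb line, and Imp3, a U3 snoRNP protein, changed by -0.44 (adjusted p = 0.000175). Of 20 genes of 60S assembly 6 rose and 0 fell, then 0 and 4, then 5 and 5. Ebna1bp2 rose by 0.48 (adjusted p = 1.83e-05) in the Esrrb line, and Nle1 changed by -0.45 (adjusted p = 0.00036) in Esrrb+Nanog against Nanog-null. Of 10 snoRNP core genes 3 rose and 1 fell, then 0 and 0, then 3 and 1, with Dkc1, the pseudouridine synthase, up by 0.31 (adjusted p = 0.00175) and Naf1 at -0.31 (adjusted p = 0.0031) in the Esrrb line.

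Of 14 genes of RNA polymerase I, which transcribes rRNA, 5 rose and 0 fell, then 0 and 0, then 6 and 2. Znrd1, a polymerase I subunit, stood at 20.9 to 23.3, 35.5 to 44.7 and 37.4 to 44.1 CPM in the 3 lines, and rose by 0.84 (adjusted p = 3.77e-05) in the Esrrb line. Rrn3, the initiation factor that growth signals act on, rose by 0.66 (adjusted p = 3.72e-05). Of 6 tested dedicated chaperones of ribosomal proteins 3 rose and 0 fell, then 0 and 0, then 3 and 1, among them Aamp, up by 0.47 (adjusted p = 7.25e-05) in the Esrrb line.

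Of 14 regulators upstream of ribosomal proteins 5 rose and 4 fell, then 0 and 5, then 3 and 5. Mycn, a MYC-family activator, stood at 391.9, 383.2 and 395.5 CPM in Nanog-null libraries, 155.0, 127.4 and 166.2 in the Esrrb libraries, and 104.5, 84.9 and 125.3 in the Esrrb+Nanog libraries. The 3 lines did not overlap, and the change of Mycn from the Nanog-null line was -1.38 (adjusted p = 5.45e-06) in the Esrrb line and -1.89 (adjusted p = 4.36e-07) in the Esrrb+Nanog line. Larp1, which binds TOP mRNAs and the cap, stood at 952.4 to 974.7, 620.9 to 688.7 and 546.4 to 559.4 CPM. Larp1 changed by -0.54 (adjusted p = 1.19e-05) and -0.80 (adjusted p = 4.9e-07) in the same comparisons. The part of either gene in the levels of the members was not tested. Where these lists had 0 genes rising between the Esrrb+Nanog and Esrrb lines, DESeq2 also gave 0, and at an unadjusted p under 0.05 in edgeR at most 1 gene of a list rose. The counts of 0 falling genes in the Esrrb line were 0 by DESeq2 too, and 2 at the unadjusted p for 60S assembly. Between the Esrrb+Nanog and Esrrb lines, where 0 genes had fallen, the unadjusted count was 4 for polymerase I, 1 for the snoRNP core and 0 for the chaperones, with 1, 0 and 0 by DESeq2.

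Mitochondrial ribosomal protein genes, whose products make the separate ribosome of the mitochondrion, were counted beside them. Of 77 tested, 38 rose and 3 fell in Esrrb against Nanog-null, with a median of 0.20. In Esrrb+Nanog against Esrrb 0 rose and 1 fell, with a median of -0.03, and in Esrrb+Nanog against Nanog-null 36 rose and 10 fell, with a median of 0.18. Mrpl21 rose by 0.74 (adjusted p = 2.11e-06) in the Esrrb line, from 56.1 to 58.1 CPM in Nanog-null libraries to 92.1 to 98.5. The difference between the mitochondrial and cytosolic lists was not tested.

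**Figure D5:**
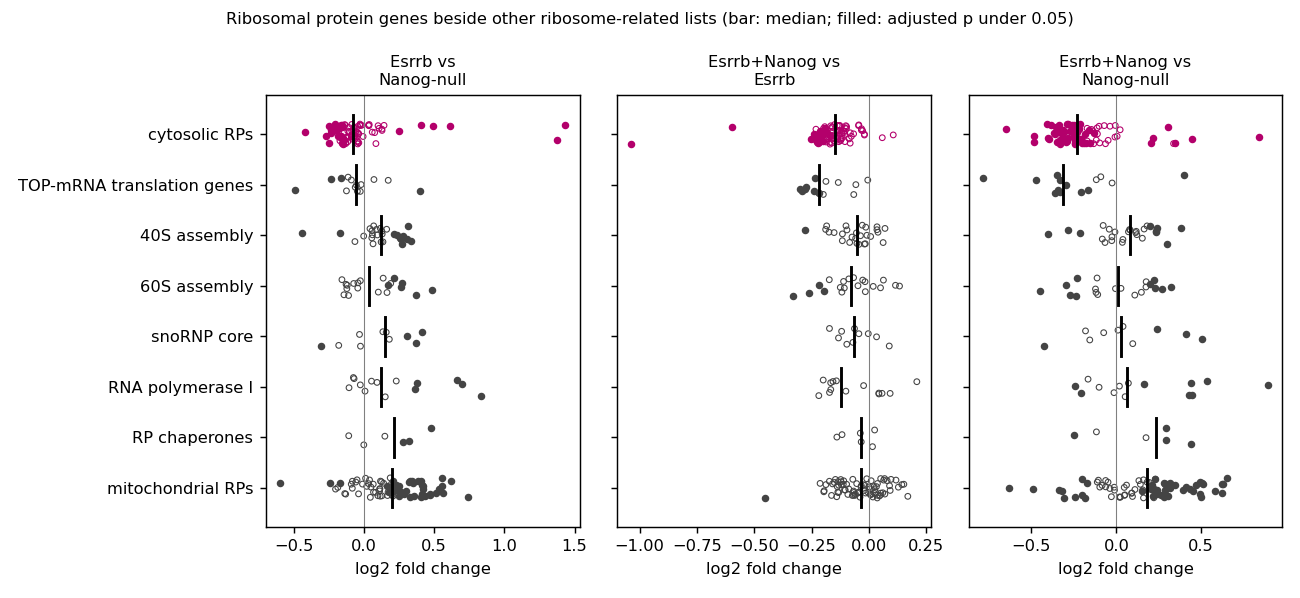
Log2 fold change (x axis, with a range of its own in each panel) of the cytosolic ribosomal protein genes (RPs) and 7 other ribosome-related lists (rows) in the 3 comparisons (panels), with bars at the medians and filled points for adjusted p under 0.05. In the rightmost panel the cytosolic and TOP-mRNA lists have medians of -0.23 and -0.31, and the mitochondrial list one of 0.18.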

How the data were processed

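Total RNA of sorted cells was depleted of rRNA and sequenced, per the labels' protocols. The submitters' processing notes name STAR 2.5.3a, bcl2fastq 2.19.1 and build mm10. The annotation used, strandedness and counting rules are not given in those sources. What the authors deposited are unscaled read counts per Ensembl gene, as the file's own values show. The table has 15 columns, of which 9 matched samples by name and 6 were not used. Symbols and positions came from GENCODE M21 (mm10), found for 52489 of 52636 IDs. Counts were fitted in R 4.3.3 with the quasi-likelihood test of edgeR 4.0.16 on the 9 libraries together, modelling only the line, trimmed mean of M values (TMM) factors, the default low-count filter (16198 genes, all 83 members) and Benjamini-Hochberg adjustment over all tested genes at 0.05. "Rose" and "fell" mean past that threshold. CPM are counts divided by library total times TMM factor, SDs are over 3 libraries, and standard errors belong to log2 changes. The scripts were tested on simulated data. Alternatives were other scalings and filters, DESeq2 1.42.0, a fold-change threshold of 1.5, a replicate block, only 2 groups in the fit, and each library left out. Named were, per comparison, the 6 called members with the largest rise and the 6 with the largest fall. In addition 10 members with known roles (the stalk proteins, Rpsa, Rpl5, Rpl11, Rps6, Rps27a, Rps19 and Rpl38) and the paralog pairs were named, and from each list genes among the 2 with the smallest adjusted p in each comparison. The members and lists were chosen with earlier results of these data known. A few genes that these rules pick are not reported here. Proteins are not shown, and promoters came from a RefSeq table (GRCm38.p6).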

Additional observations from a re-analysis of the deposited data

How the results depend on the processing

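Apart from scaling to the summed members, directions of the members' medians held under every alternative tried, but the counts of calls moved. Scaled to the summed counts of the members, a setting that by construction centres them, the medians were -0.0028, -0.00022 and -0.0064 for the Esrrb against the Nanog-null, the Esrrb+Nanog against the Esrrb and the Esrrb+Nanog against the Nanog-null line. In the same order 12, 1 and 14 members then rose and 4, 2 and 7 fell. The 1 was Rpl22l1, which rose by 0.25 with an adjusted p of 0.0335. Among 16198 tested genes 4777, 2558 and 7028 rose and 3227, 740 and 2821 fell under this scaling. The median of all tested genes moved to 0.09, 0.14 and 0.23. There Rpl11, Rpl38, Rpl39 and Fau, which had fallen in the last comparison, had uncalled changes of 0.0355, 0.0946, 0.00834 and 0.0135. Against a fold change of 1.5, 2, 0 and 1 members rose and 0, 0 and 0 fell. At that setting 1117, 98 and 1324 of 16198 tested genes rose and 1371, 135 and 1739 fell. With library totals alone 31 members fell in the Esrrb line, and 4 between the Esrrb+Nanog and Esrrb lines (median -0.085). Among 16198 tested genes 4273 and 941 fell in the same order. With at least 5 CPM in 3 libraries 30 members fell in the Esrrb line, against 3069 of 10835 tested genes. With only the 2 groups compared 3 members fell between the Esrrb+Nanog and Esrrb lines, against 975 of 15736 tested genes. The causes were not tested. With each library left out, falling members numbered 6 to 29, 2 to 35 and 47 to 61 and rising ones 6 to 7, 0 to 0 and 3 to 7. Falling genes among all tested then numbered 3461 to 4323, 710 to 1421 and 3855 to 4577. The medians of the members ranged from -0.121 to -0.043, -0.180 to -0.127 and -0.256 to -0.216. The share of counts in the Esrrb+Nanog line was 4.79% of counts on nuclear protein-coding genes. The log2 ratio of Rpl22l1 over Rpl22 between the Esrrb and Nanog-null lines (0.034) ranged from -0.024 to 0.128 with a library left out, including -0.003 and -0.019, and that of Rps27l over Rps27 between the Esrrb+Nanog and Esrrb lines (-0.092) from -0.161 to 0.018. The replicate numbers pair no samples by the labels. Over all tested genes, same-numbered libraries of different lines correlated in their deviations at -0.02 to 0.28, over 0.1 in 3 of 9 pairs. Differently numbered libraries of different lines correlated at -0.33 to 0.22. Over the members alone these ranges were wider, -0.59 to 0.56 for same-numbered and -0.37 to 0.63 for differently numbered libraries. With the replicate number as a block, 6, 0 and 6 members rose and 13, 16 and 57 fell. In that fit 3975, 994 and 4462 of 16198 tested genes rose and 4022, 1387 and 4484 fell. Every member had at least 8053 counts over the 9 libraries.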
